A study of Mus musculus with 16 samples.

Results

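Brains of 4 Grn knockout mice were compared with those of 4 wild type mice (labelled WT) on the nCounter Neuropathology panel, a digital assay that counts colour-coded probes hybridised to RNA without amplification. The comparison took every panel gene (770) and tested the 708 whose mean reached 20 normalized counts over the 16 animals of the series; the other 62 were not tested. All 16 animals were female mice aged 6 months, and total RNA of the whole brain was measured. The Grn knockout lacks Grn with Trem2 intact, and the wild type has both genes. Another 4 animals lacked both Grn and Trem2 (the Grn/Trem2 double knockout) and 4 lacked Trem2 alone (the Trem2 knockout). These 8 share no animal with the main comparison and served as a second test of Grn loss. Both comparisons came from 1 fit over the 16 animals with a shared estimate of the spread, so their p-values are not independent. The labels used here do not name the knockout alleles, the strain background, the breeding or the assay batch of each animal. Each animal is 1 sample, so p-values measure the spread between animals.

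Grn encodes progranulin, a secreted protein that is taken up into the lysosome and cleaved there into granulins. In the brain it is made by microglia, the resident phagocytes, and by neurons. Loss of 1 copy of the human gene causes frontotemporal dementia, and loss of both copies causes a lysosomal storage disease, neuronal ceroid lipofuscinosis. Mice without progranulin are known for microglial activation and for lysosomal pathology. Trem2 encodes a microglial surface receptor for lipids and lipoproteins that drives the activated state of these cells. Several genes higher in the knockout below are expressed by microglia, whose identity depends on PU.1, a transcription factor encoded by Spi1 that recognises the core letters GAGGAA.

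For 4 genes whose Grn knockout values all exceeded every wild type value, the 250 bases upstream of the gene start are printed below as the regulatory sequence nearest to the measured RNA. The sequences come from RefSeq (GRCm38.p6), run 5′ to 3′ on the strand of the gene, and show the PU.1 core or its reverse complement TTCCTC in capitals.
Cd68 (chr11:69666171-69666420, minus strand): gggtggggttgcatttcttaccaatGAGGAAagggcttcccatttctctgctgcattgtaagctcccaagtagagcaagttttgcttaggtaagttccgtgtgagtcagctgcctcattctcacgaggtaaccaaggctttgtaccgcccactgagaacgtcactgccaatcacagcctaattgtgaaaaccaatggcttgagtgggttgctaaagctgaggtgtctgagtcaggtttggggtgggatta
C1qb (chr4:136886201-136886450, minus strand): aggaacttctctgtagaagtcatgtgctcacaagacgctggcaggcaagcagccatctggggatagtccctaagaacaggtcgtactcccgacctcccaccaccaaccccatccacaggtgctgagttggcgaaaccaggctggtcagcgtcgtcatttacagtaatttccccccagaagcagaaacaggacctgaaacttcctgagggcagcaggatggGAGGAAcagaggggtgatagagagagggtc
C1qc (chr4:136892915-136893164, minus strand): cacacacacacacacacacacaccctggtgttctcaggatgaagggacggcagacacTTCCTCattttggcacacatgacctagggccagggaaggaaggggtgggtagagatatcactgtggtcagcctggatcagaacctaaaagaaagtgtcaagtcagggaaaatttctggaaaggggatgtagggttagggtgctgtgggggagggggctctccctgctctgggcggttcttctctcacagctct
Trem2 (chr17:48346151-48346400, plus strand): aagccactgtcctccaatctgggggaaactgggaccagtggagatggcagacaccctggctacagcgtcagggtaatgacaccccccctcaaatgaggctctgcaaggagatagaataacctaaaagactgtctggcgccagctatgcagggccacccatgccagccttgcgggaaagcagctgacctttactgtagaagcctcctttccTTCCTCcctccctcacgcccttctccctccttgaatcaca
Each window held 1 match, which began 225 bases before the gene start in Cd68, 30 in C1qb, 193 in C1qc and 40 in Trem2. The letters were searched on both strands as GAGGAA. Of the 8 genes with every knockout animal above every wild type animal, 6 had a promoter entry, and all 6 held the letters at 1 start site or more (2 of 3 start sites for Apoe and 1 of 2 for Lsm2). The same letters occurred in 23.1% of 27025 RefSeq promoters of this length and in 23.5% of the 524 promoters of tested panel genes. These shares used 1 start site per gene, whereas the count of 6 took any start site, so the figures are not on the same basis. The 8 genes were also picked by their knockout values, and enrichment was not tested. A match describes these windows and is not evidence of binding. C1qa is named without a sequence.

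Grn itself separated the groups. It read 11.8, 12.7, 9.48 and 20.4 normalized counts in the Grn knockout brains, against 662, 565, 594 and 647 in the wild type brains. All 4 knockout values lay below the background threshold of their own animal (the mean plus 2 SD of its 8 negative control probes), so the difference is a bound, at least 25.5-fold lower in the knockout (limma, adjusted p = 1.20e-11). Total gene counts ran from 477113 to 767742 in the knockout and from 594993 to 681921 in wild type. Negative controls were lower in the knockout, at 12.4 ± 2.33 counts per probe, against 17.3 ± 2.45 in wild type (SD, n = 4 each; exact permutation test, two-sided, p = 0.0286, which is the minimum for groups of 4). This background adds to every gene and weighs most on weak ones, so several lists and genes of low counts are also given below with the negative controls subtracted. The tissue markers were as labelled: Slc1a2, the glutamate transporter of astrocytes, averaged 11699 ± 1110.4 in knockout and 11549 ± 339 in wild type brains, Map2 of neuronal dendrites 5615 ± 508 and 6121 ± 635, and Mbp of myelin 2994 ± 414 and 3105 ± 447.

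Across the panel the 2 genotypes were close. With adjusted p under 0.05 in limma, 4 of 708 genes differed (0.565%): Grn fell, and Cd68, C1qa and C1qb rose. A further criterion asked whether the 4 knockout animals all lay outside the range of the 4 wild type animals. By this criterion 24 genes (3.39%) did not overlap, 8 higher (1.13%) and 16 lower (2.26%). Complete separation arises in a fraction of 0.0286 of all arrangements of 4 against 4 animals, so the count is close to that from shuffled labels. A gene named for separation alone is therefore described and not called different. The higher ones included Cd68, C1qa, C1qb, C1qc, Apoe, Trem2 and Lsm2. The lower ones included Grn, Cast, Il15ra, Pla2g4e, Pnkd, Adra2a, Abl1, Il10ra, Glrb, Usp30, Park2, Cul1, Magee1, Bcas2 and Prkaca. In 23 more genes 3 of 4 knockout animals lay above every wild type animal, and in 43 more 3 of 4 lay below. At an unadjusted p under 0.05, 38 genes (5.37%) differed, 18 of them higher (2.54%) and 20 lower (2.82%). That share is close to the rate of 0.05 that the threshold gives without any difference.

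The typical gene moved little. The log2 difference, knockout minus wild type of log2(value + 1), had a median of -0.02, with 10th and 90th percentiles of -0.18 and 0.13. It was under 0.1 in size for 438 genes and over 0.5 for 7: Grn, Avp, Cd68, Trem2, C1qa, Pla2g4e and C1qb. The standard error of a gene's difference had a median of 0.11. A difference above 0 was seen in 292 genes (41.2%), and this share rested on the scaling: it was 48.3% with each animal centred on its median, 52.4% after quantile normalization, 53.7% with the negative controls subtracted and 97.7% with scaling to the positive controls, which moved the median of all genes to 0.33.

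**Figure D1:**
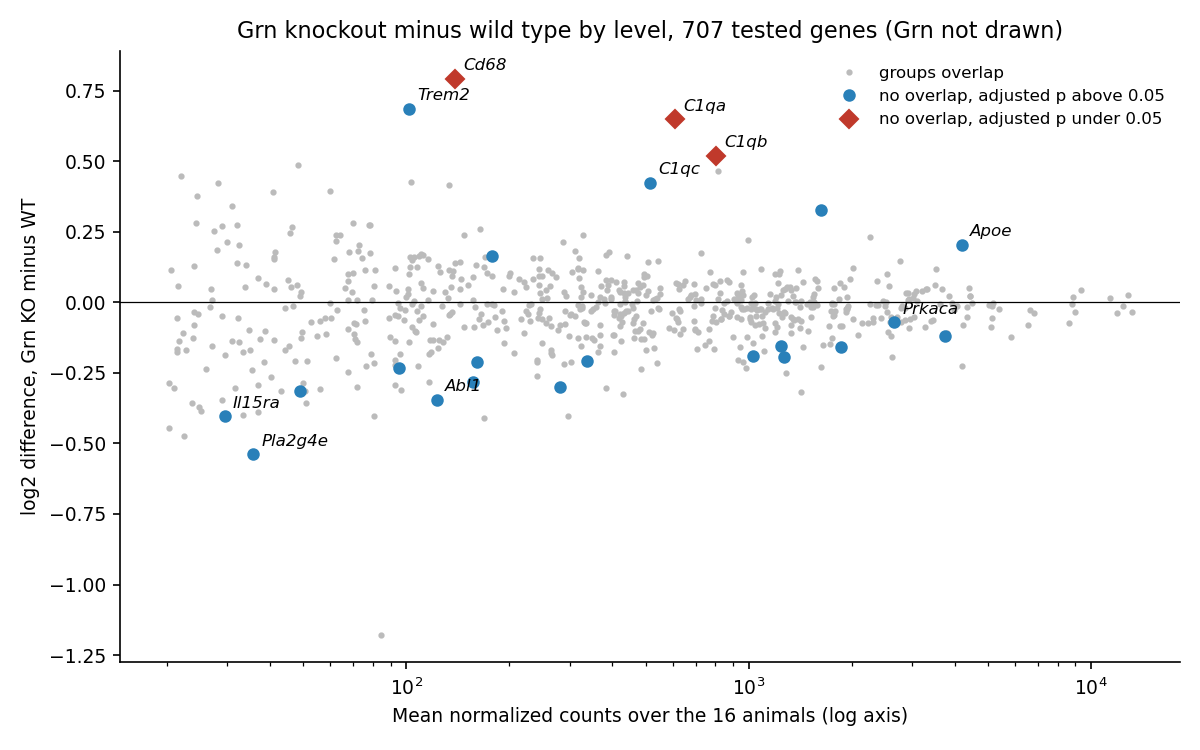
Log2 difference (Grn knockout minus wild type, vertical axis) of 707 tested genes against their mean normalized count over the 16 animals (log axis); Grn is not drawn. Grey points are genes whose groups overlap, blue points genes without overlap and red diamonds Cd68, C1qa and C1qb. The cloud is wide at the left, where the median size of a difference is 0.16, and narrow at the right, where it is 0.05.

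Abundance set how large a difference could be seen. The 157 genes averaging 20 to 100 counts had a median absolute difference of 0.16 and a median standard error of 0.19, the 144 genes from 100 to 300 counts 0.09 and 0.12, the 204 genes from 300 to 1000 counts 0.06 and 0.09, and the 202 genes above 1000 counts 0.05 and 0.09. No gene of the lowest class passed the adjusted threshold in limma, although 15 had an unadjusted p under 0.05. In that class 0 genes lay wholly above wild type and 4 wholly below (2.55% in all). The share above 0 there was 39.5% as deposited, and with the negative controls subtracted 112 of the 157 genes were above 0. In the highest class 2 genes lay wholly above and 6 wholly below (3.96%), with a share above 0 of 34.2%. The most abundant genes stayed close between genotypes: Atp6v0c, a proton pump subunit, averaged 13326 ± 779.6 in knockout and 13653 ± 689 in wild type brains, and Clu, the secreted chaperone clusterin, 12314 ± 1282 and 12585 ± 569.9.

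Cd68, the lysosomal glycoprotein of phagocytes, rose furthest among the genes called. It read 184, 220.4, 182 and 181 in the knockout brains and 131, 91.9, 107 and 113 in the wild type brains. The lowest knockout animal was well above the highest wild type animal, with a log2 difference of 0.79 (SE 0.12, 1.73-fold, adjusted p = 0.00194). In bulk tissue, more cells of a type and more RNA per cell cannot be told apart. The summed level of the 5 tested homeostatic microglial genes ran from 1321 to 1665 in knockout and from 1356 to 1651 in wild type brains, with the ranges overlapping. Most of this sum came from Cx3cr1 and Csf1r. The sum of the 8 tested activated microglial genes, Cd68 among them, ran from 5719 to 6486 and from 5316 to 5538, without overlap. Of these 8 genes 6 were above 0, with a median of only 0.06. By themselves 2 of them lay wholly above wild type, beside 1.13% of all genes. A sum follows its most abundant members, and neither sum was tested. Whether cell number changed was not tested.

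The 3 chains of C1q, the recognition unit of the classical complement pathway, are all on the panel. C1qa read 826, 963, 688 and 894 in the knockout brains and 559.8, 539.6, 530.1 and 503 in the wild type brains (log2 0.65, SE 0.12, adjusted p = 0.0144). C1qb read 956, 1180.4, 983 and 1242 and 809, 728, 775 and 713 (log2 0.52, SE 0.08, adjusted p = 0.00353). In both genes the groups were apart by more than the spread within either one. C1qc read 652, 694, 584 and 710.5 in knockout and 525, 491, 440.1 and 509 in wild type brains, also without overlap, but its difference of 0.42 (SE 0.11) had an adjusted p of 0.177 and did not pass. C1qc passed with each animal centred on its median (adjusted p = 0.0220) and with limma's voom on recovered counts (adjusted p = 0.0113). C1qa lost the call without wild type replicate 3 or 4 and without knockout replicate 2 or 4 (adjusted p from 0.0538 to 0.0766).

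Beyond the C1q chains, the complement genes on the panel include C4a, C3 and the receptor subunit Itgam. C4a read 29.9, 46.6, 28.4 and 42.9 in knockout and 35.9, 34.97, 27.7 and 26.7 in wild type brains, and 2 knockout animals were above every wild type animal. C3, the central component, read 65.3, 47.7, 39.3 and 33.2 and 33.6, 45.96, 41.5 and 55.6, with the groups interleaved. Itgam, a chain of complement receptor 3, read 148, 113, 96.2 and 102 and 117, 97.9, 81.1 and 111, and 1 knockout animal exceeded the wild type range. Of these 3 none passed the test, and the difference of C3 changed sign when 1 animal was left out (-0.13 to 0.19). All 6 tested complement genes, the C1q chains included, had a difference above 0, beside 41.2% of all genes. The 2 that passed the test were C1qa and C1qb, beside 0.424% of all genes called higher. The 3 that lay wholly above wild type were the C1q chains, beside 1.13%. Both counts therefore restate the C1q result, and C4a, C3 and Itgam added none. The median of the 6, C1q chains included, was 0.32, against -0.02 over all genes. It was above 0 under every scaling tried, at 0.49 with the negative controls subtracted.

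Trem2 was higher in every knockout animal. It read 239.6, 251, 188 and 248 in the Grn knockout and 159.9, 128, 144 and 140.1 in wild type brains, with a gap between the highest wild type and the lowest knockout animal. The difference of 0.69 (1.61-fold) had an SE of 0.39 in the fit over all 16 animals and an adjusted p of 0.926. That fit pools in the 8 Trem2-null animals, in which Trem2 lay below the background threshold except in Trem2 knockout replicate 1, at 35.4 against a threshold of 26.4. In a fit of the 8 animals alone the adjusted p was 0.033. In that smaller fit C1qb had an adjusted p of 0.0979, so each fit called 4 genes.

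**Figure D2:**
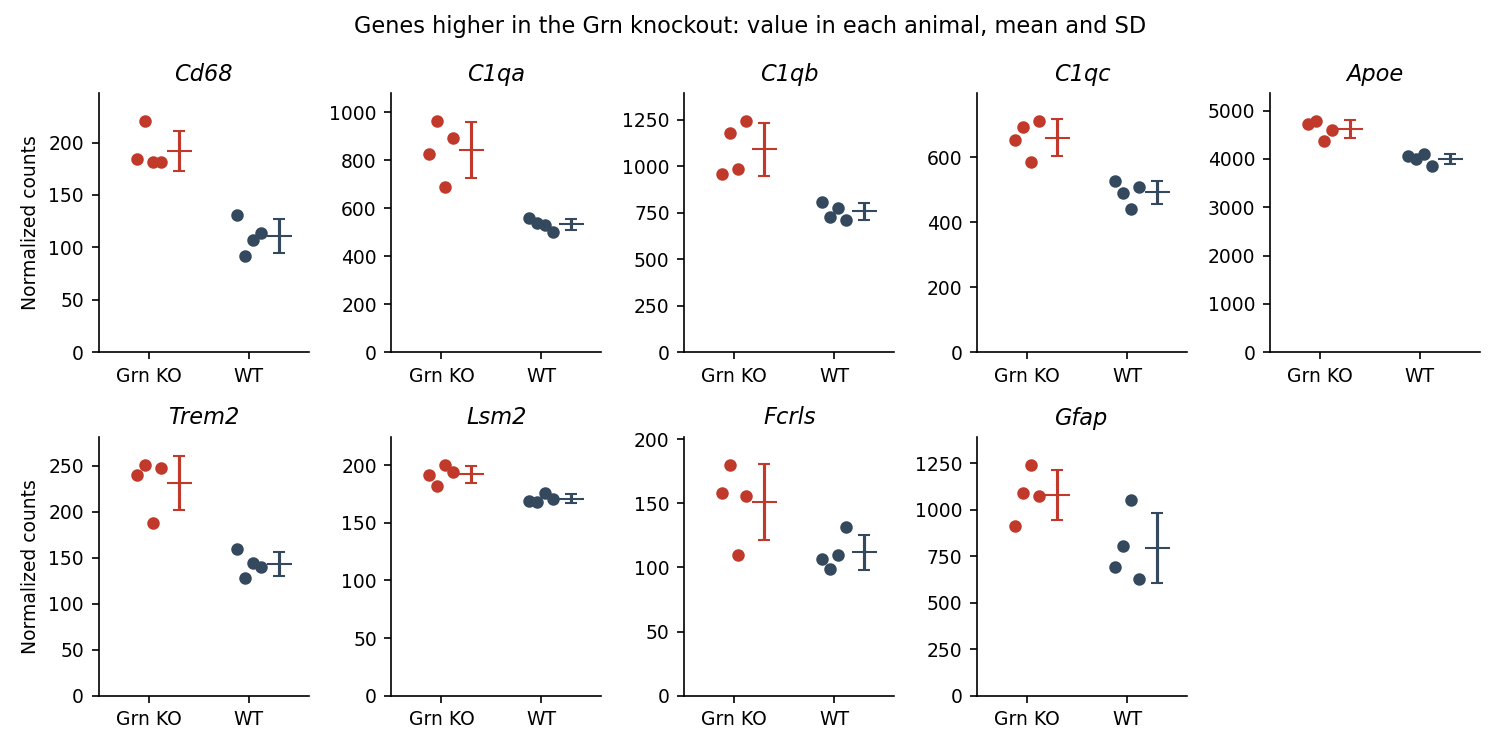
Normalized counts of 9 genes in each animal (points), with the mean and SD beside them, Grn knockout at left and wild type at right in each panel; every vertical axis starts at 0. The 4 knockout animals lie above every wild type animal for Cd68, C1qa, C1qb, C1qc, Apoe, Trem2 and Lsm2, and 3 of 4 do so for Fcrls and Gfap.

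Homeostatic microglial genes moved unevenly. Fcrls, an Fc receptor-like gene expressed in mouse microglia, read 158, 180.1, 109.7 and 155 in knockout and 107, 98.9, 109.8 and 132 in wild type brains, and 3 knockout animals were above the wild type range (log2 0.41, SE 0.16, adjusted p = 0.726). P2ry12, the purinergic receptor of resting microglia, read 163, 149, 145 and 156 and 111, 136, 118 and 159, with 1 knockout animal above the range. Tmem119, a microglial membrane protein, read 155, 197, 157 and 231 and 169, 159.9, 187 and 155, with 2 above. Cx3cr1, the fractalkine receptor, and Csf1r, the receptor for the survival factor CSF1, overlapped almost fully, at 517 ± 63.3 and 533 ± 37.4 in knockout and 494 ± 51.6 and 533 ± 77.6 in wild type brains. None of the 5 passed the adjusted threshold. The median of the 5 was 0.13; it was 0.06 without Grn knockout replicate 4 and 0.20 without Grn knockout replicate 1 or 3.

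Spi1, which encodes PU.1, read 70.8, 87.9, 54.2 and 76.1 in knockout and 56.8, 56.95, 64.3 and 63.1 in wild type brains. In 3 knockout animals it exceeded every wild type animal and in 1 it was below all of them, so the difference of 0.24 did not pass (adjusted p = 0.926). Cd9, a tetraspanin of activated microglia and of glia generally, read 842, 947, 780.2 and 873 and 717, 786, 856 and 953, with the groups interleaved. Csf1, the ligand of Csf1r, was on the low side, at 189.7, 209.8, 169 and 207 in knockout and 247, 187, 205 and 244 in wild type brains, but 3 of its 4 knockout values fell inside the wild type range. Aif1, Itgax and Cd14, which mark microglia or activated microglia, were among the genes not tested; Itgax for instance read 13.6 to 22.5 in knockout and 14.99 to 23.7 in wild type brains, near background.

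Genes of the phagocyte oxidase, Toll receptors and inflammasome lay above 0 in all 7 tested members, with a median of 0.28, and 0 passed the adjusted threshold. The median was 0.99 with the negative controls subtracted and 0.18 without Grn knockout replicate 1, and 1 member, at 0.05, remained with a minimum mean of 50 counts. Ncf1, a cytosolic subunit of the oxidase, read 84.4, 59.3, 48.8 and 50.4 in knockout and 51.0, 33.97, 46.5 and 38.5 in wild type brains, with 2 knockout animals above the range (adjusted p = 0.496). Cybb, the membrane subunit that carries electrons, read 49.0, 36.03, 18.96 and 18.2 and 17.4, 19.98, 21.8 and 22.5; both high values came from knockout replicates 1 and 2 and the other 2 were at the wild type level. Casp1, the inflammasome caspase, read 36.3, 49.8, 39.3 and 54.6 and 35.9, 33.97, 42.5 and 24.6, also with 2 animals above. Tlr2 and Tlr4, receptors for microbial lipids, averaged 31.3 ± 4.63 and 30.9 ± 5.57 in knockout and 25.7 ± 5.41 and 28.2 ± 10.5 in wild type brains, values below the background threshold in all wild type animals. With the negative controls subtracted the log2 differences were 0.90 for Ncf1, 1.70 for Cybb, 0.99 for Casp1, 1.36 for Tlr2 and 1.07 for Tlr4, against 0.49, 0.45, 0.39, 0.28 and 0.19 as deposited. Subtracted values under 1 were set to 1. The scaled negative controls of the wild type animals averaged from 15.6 to 21.9 counts, close to their Cybb values. The larger differences of the weakest genes therefore rest on few remaining counts and on this floor. Il1b, Nlrp3 and Nos2 of this list were not tested.

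Immunoproteasome and interferon genes were above 0 in all 4 tested members (median 0.16), none past the adjusted threshold. The median was 0.40 with the negative controls subtracted, 0.10 without wild type replicate 3 and 0.24 without Grn knockout replicate 3. Psmb8, an inducible catalytic subunit of the immunoproteasome, read 85.3, 83.7, 70.4 and 75.01 in knockout and 73.02, 57.95, 57.4 and 70.6 in wild type brains, with 3 knockout animals above the wild type range (adjusted p = 0.699). Psmb9, its partner subunit, read 40.8, 46.6, 32.5 and 38.6 and 37.1, 30.98, 30.7 and 40.6, and 2 knockout animals were above. With the negative controls subtracted the log2 differences were 0.49 for Psmb8 and 0.67 for Psmb9, against 0.28 and 0.18 as deposited. Irf8, a myeloid transcription factor, overlapped, at 49.6 ± 12.8 in knockout and 47.2 ± 8.90 in wild type brains.

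Cytokines and their receptors were split. Of 25 tested members 11 were above 0 (median -0.03), 0 passed, and 2 receptors lay wholly below wild type, beside 2.26% of all genes. With the negative controls subtracted 18 of the 25 were above 0 and the median was 0.10; as deposited, the median was 0.03 without wild type replicate 4. Il15ra, the alpha chain of the interleukin 15 receptor, read 29.9, 29.7, 25.7 and 24.6 in knockout and 32.5, 40.97, 40.5 and 33.1 in wild type brains (log2 -0.40, adjusted p = 0.496). Il10ra, a chain of the receptor for the anti-inflammatory cytokine interleukin 10, read 40.8, 41.3, 50.1 and 48.2 and 55.6, 50.96, 64.3 and 54.5 (log2 -0.31, adjusted p = 0.88). Both are weak genes, and with the negative controls subtracted their groups overlapped, at log2 differences of -0.34 and -0.26. Cxcl10, an interferon-induced chemokine, averaged 19.3 ± 3.65 in knockout and 23.7 ± 3.63 in wild type brains, close to background; its sign turned to 0.29 after subtraction. Tgfb1, an immunosuppressive growth factor, read 73.5, 69.9, 65.02 and 93.2 in knockout and 67.2, 63.95, 65.3 and 56.7 in wild type brains, with 3 knockout animals above the range (adjusted p = 0.885). Among further innate genes Tspo, the mitochondrial translocator protein used as an imaging marker of glial activation, read 56.3, 63.6, 44.7 and 56.8 and 41.7, 42.97, 48.5 and 52.4, with 3 above, and Hmgb1, a nuclear protein released as a danger signal, read 741, 673, 696 and 763 and 795, 737, 771 and 894, with 2 below. Of 4 peripheral leukocyte markers on the panel, Cd8a and Itgal were not tested, and the 2 tested summed to 46.05 to 110.2 counts in knockout and 49.2 to 90.4 in wild type brains.

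**Figure D3:**
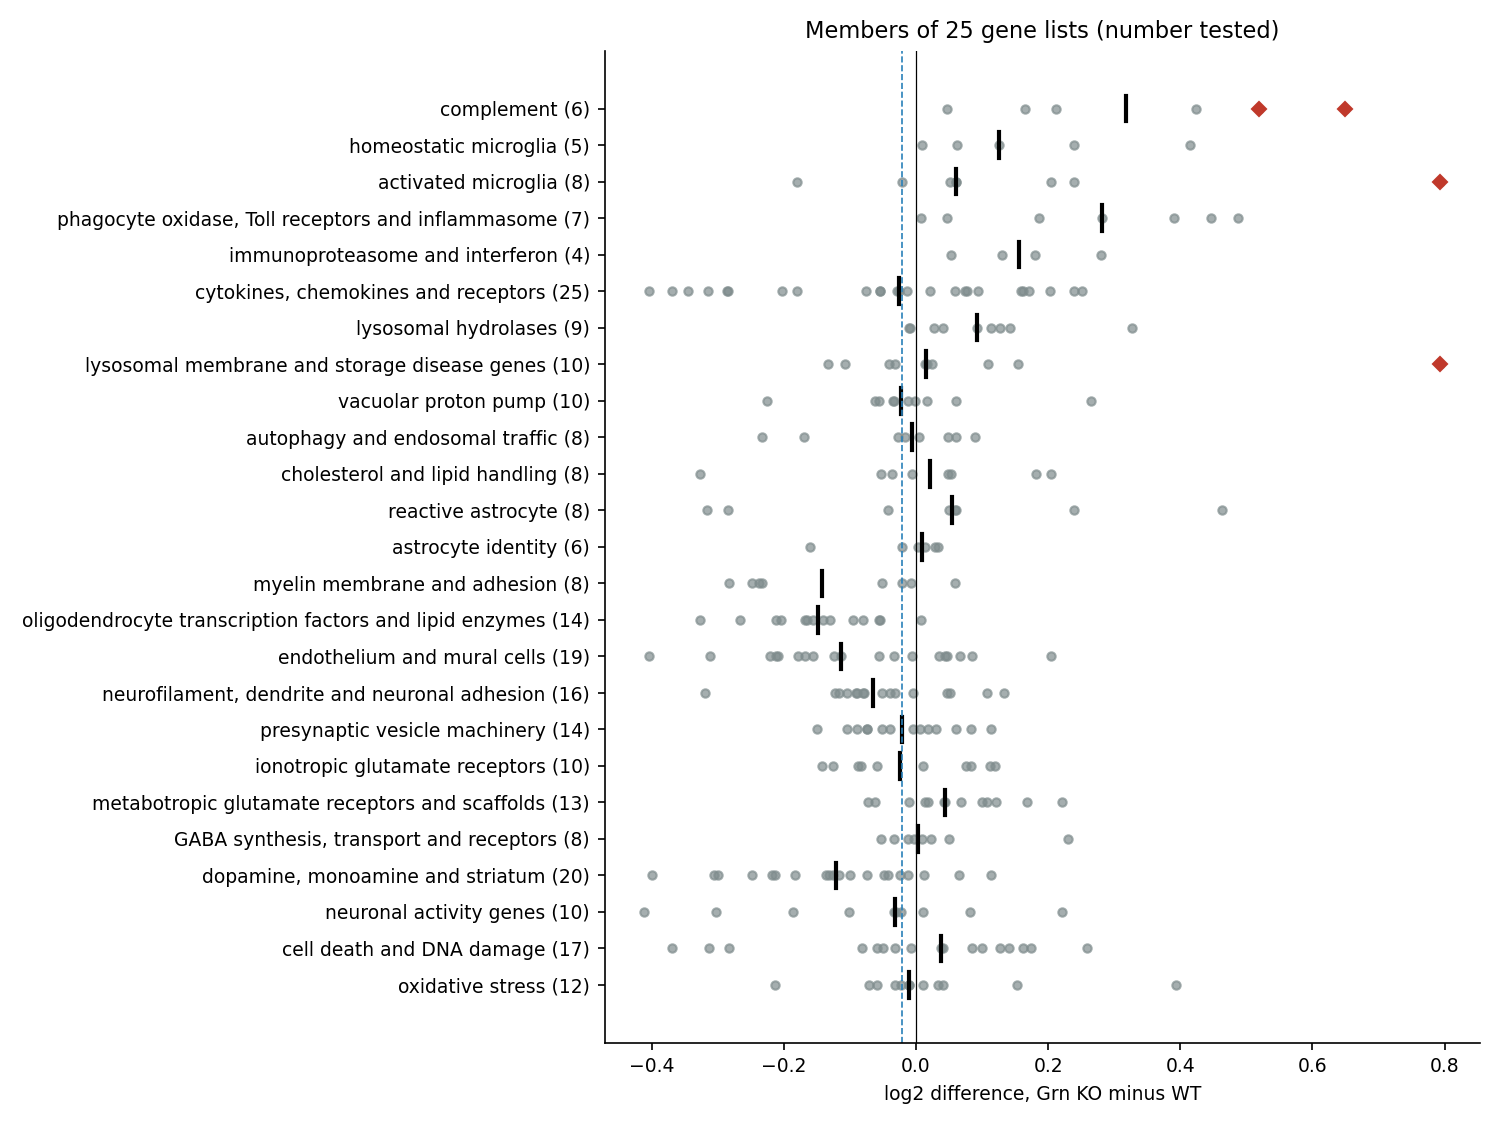
Log2 difference (Grn knockout minus wild type) of the tested members of 25 gene lists; each grey point is 1 gene, red diamonds are genes with adjusted p under 0.05, the black bar is the list's median and the dashed line the median of all genes (-0.02). Complement and phagocyte oxidase genes lie right of 0, while the medians of both oligodendrocyte lists drawn (-0.14 and -0.15), of endothelium (-0.11) and of dopamine genes (-0.12) lie left of it; these 4 medians turn positive with scaling to the positive controls, which shifts all genes up, and that of endothelium also with the negative controls subtracted.

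Lysosomal hydrolases were above 0 in 7 of 9 tested members (median 0.09, 0.06 without wild type replicate 2 and 0.04 without wild type replicate 3), and 0 passed the adjusted threshold. Of the 9, 1 lay wholly above wild type, beside 1.13% of all genes. Their summed level ran from 5999 to 6530 in knockout and from 5634 to 5954 in wild type brains, without overlap. This sum includes the member that lay wholly above wild type, and it was not tested. Complete separation arises in a fraction of 0.0286 of all arrangements of 4 against 4 animals. In the Trem2-null animals all 9 were above 0 (median 0.14), beside 55.4% of all genes. Man2b1, the lysosomal alpha-mannosidase, read 348, 336, 331 and 384 in knockout and 319.9, 321, 313 and 337 in wild type brains, with 2 knockout animals above the range. Galc, which degrades the myelin lipid galactosylceramide, read 258, 249, 268 and 263 and 256, 226, 249 and 243, and Naglu, a heparan sulfate-degrading enzyme, 156, 173, 137 and 159 and 136, 149, 149 and 130.5; in each 3 knockout animals were above every wild type animal. Gusb, beta-glucuronidase, had 1 such animal, at 127, 108, 111 and 102 in knockout and 118, 99.9, 79.1 and 117 in wild type brains.

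Lysosomal membrane and storage disease genes other than Cd68 did not separate the genotypes. Of 10 tested members 6 were above 0, with a median of 0.01. Lamp1, the main glycoprotein of the lysosomal membrane, read 2969, 3272, 3171 and 3052 in knockout and 2879, 3106, 3156 and 3181 in wild type brains, a 1.01-fold ratio with a 95% interval of -0.10 to 0.14 in log2. Npc1 and Npc2, which export cholesterol from the lysosome, averaged 622 ± 26.7 and 68.7 ± 9.59 in knockout and 639 ± 84.7 and 61.9 ± 10.7 in wild type brains. The ceroid lipofuscinosis genes Cln3 and Cln8 averaged 133 ± 6.37 and 213 ± 11.96, against 124 ± 16.6 and 229.7 ± 21.1. Ctns, the cystine exporter, was on the low side, at 107, 115, 97.5 and 120.0 in knockout and 125, 121, 115 and 121 in wild type brains, with 2 knockout animals below the range (adjusted p = 0.926).

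The vacuolar proton pump acidifies the lysosome, and 3 of its 10 tested subunits were above 0 (median -0.02). Tcirg1, the a3 subunit of its membrane part, read 58.99, 48.7, 55.5 and 46.1 in knockout and 41.7, 47.96, 39.6 and 43.8 in wild type brains, with 3 knockout animals above the range (log2 0.27, 0.63 with the negative controls subtracted, adjusted p = 0.88). Atp6v0e2, a small membrane subunit, went the other way, at 3575, 3747, 3744 and 4363 and 4479, 4258, 4395 and 4885, with 3 knockout animals below the range (adjusted p = 0.885). Atp6v1h, a subunit of the cytosolic part, read 3309, 3392, 3315 and 3589 and 3543, 3581, 3464 and 3599, also with 3 below. The test passed for 0 of the 10.

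Autophagy genes were split, with 4 of 8 above 0 and a median of -0.01. Park2, the ubiquitin ligase parkin that marks damaged mitochondria, read 90.8, 87.9, 94.8 and 83.6 in knockout and 109, 116, 97.9 and 98.4 in wild type brains, without overlap (log2 -0.23, adjusted p = 0.884). Usp30, a deubiquitinase that opposes parkin on mitochondria, was also wholly lower, at 325, 331, 282 and 331 and 342, 358, 384 and 382 (log2 -0.21, adjusted p = 0.88). Pink1, the kinase that activates parkin, overlapped, at 3751, 3666, 3893 and 3503 and 3477, 3765, 3620.4 and 3458. Optn, an autophagy receptor, averaged 249.8 ± 15.2 in knockout and 282 ± 28.6 in wild type brains, and Atg5, needed for autophagosome formation, 397 ± 17.2 and 382 ± 34.2. With the negative controls subtracted the groups of Park2 overlapped.

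Apoe, the main lipid carrier of the brain, made by astrocytes and by activated microglia, was the most abundant gene to lie wholly above wild type. It read 4717, 4779, 4363 and 4589.6 in knockout and 4058, 4002, 4092 and 3853 in wild type brains, a 1.15-fold difference (log2 0.20, SE 0.08, adjusted p = 0.726). After quantile normalization the groups of Apoe overlapped. The other 7 tested genes of cholesterol and lipid handling all overlapped. Cers1, the ceramide synthase of neurons, read 73.5, 80.5, 70.4 and 81.4 and 73.02, 58.95, 70.2 and 67.4, with 3 knockout animals above the range, and Cers2, which makes the very long chain ceramides of myelin, read 333, 456, 408 and 377 and 430.0, 452, 482 and 618, with 3 below. Lrp1, an Apoe receptor, averaged 1189 ± 109 in knockout and 1234 ± 103 in wild type brains.

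Gfap, the intermediate filament of reactive astrocytes, read 914, 1092, 1242 and 1076 in knockout and 693, 803, 1053 and 628 in wild type brains. Every wild type animal was exceeded by 3 knockout animals, and 3 of the 4 by the remaining one, with a log2 difference of 0.46 (SE 0.19, adjusted p = 0.726). Nes, the filament protein nestin that reactive astrocytes can also make, read 40.8, 61.5, 37.9 and 49.3 and 57.95, 44.96, 65.3 and 67.4, and Osmr, the oncostatin M receptor, 40.8, 58.3, 36.6 and 50.4 and 59.1, 55.96, 45.5 and 65.2, each with 2 knockout animals below the range. The median of the 8 tested members was 0.05 and turned to -0.00 without wild type replicate 2 and to -0.02 without wild type replicate 4. Astrocyte identity genes differed little (median 0.01, 0 of 6 passed): Aqp4, the water channel of astrocyte endfeet, averaged 1399 ± 206 in knockout and 1393 ± 186 in wild type brains and S100b, a calcium-binding protein, 1598 ± 419 and 1541 ± 238. Aldh1l1, a folate enzyme that marks astrocytes, read 423, 545, 566 and 587 and 605, 569.5, 601 and 577, with 3 knockout animals below the range (adjusted p = 0.996).

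Oligodendrocyte and myelin genes were below 0 in 27 of the 31 tested members of 3 lists, with a median of -0.14, beside 58.8% of all genes below 0 and an overall median of -0.02. The members were measured in the same animals and are not replicates. By animal the list sums overlapped, at 5739 to 7431 in knockout and 5908 to 7802 in wild type brains for the first list. The second ran from 11054 to 13859 and from 10965 to 14821, and the third from 4883 to 5530 and from 4858 to 6191. The medians of the 3 lists were -0.14, -0.15 and -0.14; scaling to the positive controls turned them to 0.21, 0.20 and 0.20, while the median of all genes moved to 0.33, so they stayed -0.12, -0.13 and -0.12 relative to it. The first median was -0.09 without Grn knockout replicate 1 and -0.23 without Grn knockout replicate 2, the second was -0.09 without wild type replicate 4, and the third ran from -0.17 to -0.10 with 1 animal left out. No member passed the adjusted threshold and 1 did not overlap. That gene, Bcas2, is counted among the 27 but is a component of the spliceosome rather than of myelin. It read 1127, 1197, 1185 and 1239.8 in knockout and 1283, 1262, 1297 and 1454 in wild type brains (log2 -0.16, adjusted p = 0.996).

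Mog, the myelin oligodendrocyte glycoprotein, read 873, 1145, 882 and 915 in knockout and 929.5, 1198, 1226 and 1127 in wild type brains, with 3 knockout animals below every wild type animal and replicate 2 inside their range (adjusted p = 0.881). Mal, a proteolipid of compact myelin, read 1137, 1703, 1092 and 1335 and 1424, 1471, 1609 and 1670.3; 3 knockout animals were below the wild type range and replicate 2 was above it. Mag, the myelin-associated glycoprotein of the innermost wrap, averaged 469 ± 70.8 in knockout and 556 ± 95.1 in wild type brains. Mbp, the main protein of compact myelin, overlapped fully, at 2699, 3233, 3451 and 2592 and 2566, 3256, 3624 and 2973. Pllp, the myelin proteolipid plasmolipin, had the smallest p of the 3 lists: it read 259, 307, 264 and 255 and 272, 379, 388 and 412, with 3 knockout animals below the range (log2 -0.40, SE 0.13, adjusted p = 0.496), and it passed the threshold without wild type replicate 1.

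Further members were below 0 with more overlap. Plxnb3, a plexin of oligodendrocytes, averaged 107 ± 11.9 in knockout and 131 ± 21.7 in wild type brains, and Fa2h, which hydroxylates myelin lipids, 284 ± 36.1 and 328 ± 36.1. Gpr37, an orphan receptor of oligodendrocytes, averaged 762 ± 43.1 and 865 ± 161, with every knockout value inside the wild type range. Gdpd2, a glycerophosphodiester phosphodiesterase, averaged 69.7 ± 12.1 and 85.6 ± 11.6. The weakest were Klk6, a myelin-associated protease, at 22.7 to 41.3 counts in knockout and 31.3 to 55.4 in wild type brains, and Ninj2, an adhesion molecule, at 23.6 to 40.7 and 32.97 to 58.8. The adjusted p of these 6 genes ran from 0.88 to 0.996. In the Trem2-null animals the 3 list medians, double knockout minus Trem2 knockout, were -0.05, -0.01 and 0.02.

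Genes of endothelium and mural cells were above 0 in 6 of 19 tested members, with a median of -0.11 that turned to 0.05 with the negative controls subtracted and to 0.23 with scaling to the positive controls. Without Grn knockout replicate 3 the median was -0.0085, with 9 of 19 above 0, and without wild type replicate 1 it was -0.05. Tie1, an endothelial receptor tyrosine kinase, read 74.4, 73.1, 67.7 and 84.7 in knockout and 114, 103, 102 and 81.3 in wild type brains, with 3 knockout animals below the range (log2 -0.40, SE 0.14, -0.39 after subtraction, adjusted p = 0.523). Gata2, an endothelial and hematopoietic transcription factor, read 39.9, 64.6, 47.4 and 48.2 and 62.6, 58.95, 62.3 and 62.02; 3 knockout animals were below the narrow wild type range and 1 above it. Egfl7, a secreted endothelial factor, read 413, 407, 331 and 415 and 414, 432, 423 and 418, with 3 below. Slc2a1, the glucose transporter of the blood-brain barrier, averaged 273 ± 50.96 in knockout and 307 ± 45.2 in wild type brains. Lama2, a basement membrane laminin chain, read 78.95, 84.8, 81.3 and 94.3 and 88.1, 96.9, 111 and 123, with 3 below (adjusted p = 0.726), whereas Lox, the collagen crosslinker lysyl oxidase, read 26.3, 33.9, 27.1 and 34.3 and 26.7, 24.98, 20.8 and 20.3, with 3 above but at values under the background threshold in all wild type animals (log2 0.38, 1.80 after subtraction). The subtracted value for Lox rests on few remaining counts. Tnc, the matrix glycoprotein tenascin C, read 123, 68.9, 89.4 and 70.7 and 57.95, 74.9, 81.1 and 70.6, with knockout replicate 1 the highest.

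Neuronal structure and transmission genes gave 0 adjusted calls in each list counted here. Of 16 tested genes for neurofilaments, dendrites and adhesion 4 were above 0 (median -0.07, 0.28 with scaling to the positive controls). Without wild type replicate 4 the median was -0.0035, with 8 of 16 above 0, and without Grn knockout replicate 3 it was -0.03. Nefh, the heavy neurofilament chain, averaged 1319.6 ± 301 in knockout and 1635 ± 289 in wild type brains, and Ina, alpha-internexin, 2060.2 ± 91.1 and 2235 ± 113. Mapt, which encodes tau, read 1204, 1027, 1084 and 1073 and 1123, 1211, 1148 and 1186, with 3 knockout animals below the wild type range and replicate 1 inside it.

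Presynaptic genes had 6 of 14 members above 0 (median -0.02). Syt7, a calcium sensor of slow release, averaged 1568 ± 63.6 in knockout and 1482 ± 114 in wild type brains. Slc17a6, the vesicular glutamate transporter VGLUT2, averaged 1236 ± 117 and 1373 ± 142. In both genes the spread within a genotype covered most of the difference.

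Receptors gave a similar result. Ionotropic glutamate receptors had 5 of 10 above 0, among them Gria1, an AMPA receptor subunit at 1934 ± 80.4 in knockout and 1828 ± 132 in wild type brains, and Grin2a, an NMDA receptor subunit at 309 ± 48.1 and 282 ± 16.6. Grik2, a kainate receptor subunit, read 317, 309, 295 and 329 and 351, 323, 346 and 344, with 3 knockout animals below the range. Metabotropic receptors and scaffolds had 10 of 13 above 0 (median 0.04), with the scaffold Homer1 at 1046 ± 134 in knockout and 908 ± 188 in wild type brains. GABA genes had 4 of 8 above 0: Gad1, which makes GABA, read 2069.9, 2545, 2319 and 2416 in knockout and 2587, 1849, 1927 and 1691 in wild type brains, and every knockout value fell inside the wild type range because wild type replicate 1 was the highest of all. Gabrb2, a GABA-A receptor subunit, averaged 2515 ± 30.9 and 2615 ± 205. Glrb, the beta subunit of the inhibitory glycine receptor, was wholly lower, at 3693, 3534, 3791 and 3648 and 3828, 4154, 3903 and 4049 (log2 -0.12, SE 0.05, adjusted p = 0.88).

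Dopamine, monoamine and striatal genes were above 0 in 3 of 20 members (median -0.12, 0.22 with scaling to the positive controls). With the negative controls subtracted the median was -0.03, with 9 of 20 above 0. It was -0.02 without Grn knockout replicate 1, -0.06 without wild type replicate 3 and -0.20 without Grn knockout replicate 2. Adra2a, the alpha-2A adrenergic receptor, read 247, 220.4, 286 and 279.7 in knockout and 287, 306, 316 and 360.4 in wild type brains, without overlap but with the highest knockout animal within 2 counts of the lowest wild type animal (log2 -0.30, adjusted p = 0.717). Chrna7, a nicotinic receptor subunit, read 221, 254, 272 and 320.4 and 319.9, 277, 316 and 322, with 3 knockout animals below the range. Htr1a, a serotonin receptor, averaged 210.2 ± 26.3 in knockout and 244 ± 29.6 in wild type brains, and Ddc, which makes dopamine and serotonin from their precursors, 70.4 ± 20.9 and 81.2 ± 11.5. In the Trem2-null animals the median of the same 20 genes was 0.07.

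Fos and Npas4, which follow neuronal activity, varied widely between animals of 1 genotype. Fos read 285, 518, 188 and 489 in knockout and 698, 138, 391 and 835 in wild type brains, and Npas4 193, 195, 88.04 and 171 and 246, 113, 196 and 329; both are transcription factors induced by firing. The SE of the log2 difference was 0.56 for Fos and 0.40 for Npas4, against a median of 0.11 over all genes. Peptides varied too: Cck, cholecystokinin, read 3236, 2577, 2385 and 3204 and 3067, 3043, 1967 and 2312, and Adcyap1, the peptide PACAP, 68.97, 73.1, 70.4 and 93.2 and 93.9, 84.9, 76.2 and 103. Avp, vasopressin, which is made in a few hypothalamic nuclei and was named after its values were seen, read 49.0, 54.04, 47.4 and 64.3 in knockout and 83.5, 54.96, 209.7 and 228 in wild type brains; 2 wild type animals were far above the rest (log2 -1.18, SE 0.53, adjusted p = 0.88).

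Ion channels were above 0 in 3 of 16 tested members (median -0.06, 0.29 with scaling to the positive controls, and -0.10 to -0.02 with 1 animal left out). Scn1a, a sodium channel of inhibitory neurons, read 1447, 1567, 1604 and 1411 in knockout and 1589, 1769, 1715 and 2020.0 in wild type brains, with 3 knockout animals below the range. Kcna1, an axonal potassium channel, averaged 1585 ± 154 and 1754 ± 179. Growth factors and receptors were above 0 in 3 of 18 members (median -0.07), and this median turned to 0.02 with the negative controls subtracted and to 0.28 with scaling to the positive controls; it was -0.04 when knockout replicate 3 or wild type replicate 1 or 4 was left out. Hgf, hepatocyte growth factor, averaged 74.4 ± 8.33 in knockout and 64.7 ± 9.97 in wild type brains.

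**Figure D4:**
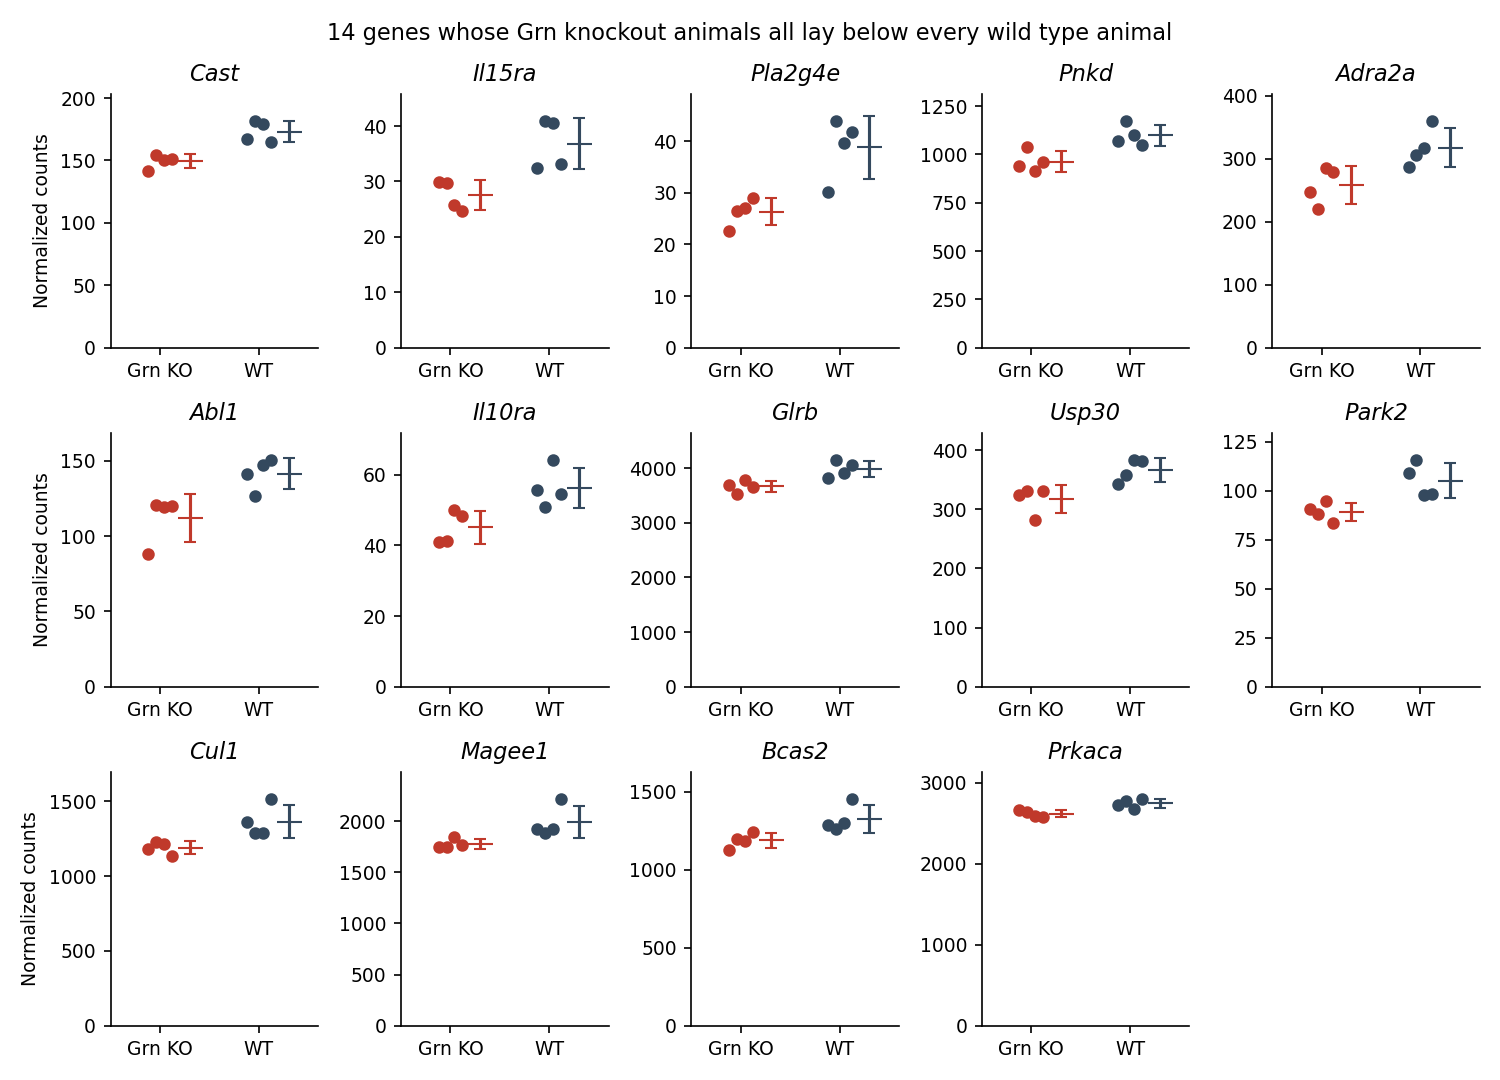
Normalized counts in each animal (points), with the mean and SD beside them, of 14 genes other than Grn whose 4 knockout animals all lay below every wild type animal; Grn knockout at left, wild type at right, axes from 0. The fitted fold, wild type over knockout, runs from 1.05 for Prkaca to 1.45 for Pla2g4e. Abl1 kept the separation under 3 other scalings.

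Among cell death genes Bax, which opens the mitochondrial membrane in apoptosis, read 196, 185, 163 and 174 in knockout and 163, 145, 150.3 and 140.1 in wild type brains, with 3 knockout animals above the range (adjusted p = 0.726). The cell death list as a whole was split, with 9 of 17 above 0 and a median of 0.04. Cast, calpastatin, the inhibitor of calpain proteases, read 142, 155, 150.3 and 151 in knockout and 167, 182, 179 and 165 in wild type brains, a 1.16-fold lower level with a small spread (log2 -0.21, SE 0.06, adjusted p = 0.454). With each animal centred on its median the groups of Cast overlapped. They stayed apart after quantile normalization and with the negative controls subtracted.

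Of the signalling enzymes, Abl1, a tyrosine kinase, read 88.02, 121, 119 and 120.0 in knockout and 141, 127, 147 and 151 in wild type brains (log2 -0.34, SE 0.14, adjusted p = 0.726). Prkaca, the catalytic subunit of protein kinase A, read 2663, 2639, 2584 and 2569.7 and 2720.3, 2779, 2677 and 2801, separated by less than 1 SD of either group between the nearest animals, with a log2 difference of only -0.07. Of 36 tested kinase signalling genes 16 were above 0 (median -0.01); Akt2, a kinase of insulin signalling, averaged 259 ± 22.9 in knockout and 232 ± 15.7 in wild type brains. Pla2g4e, a calcium-dependent phospholipase A2, had the largest difference among these genes, at 22.7, 26.5, 27.1 and 28.9 in knockout and 30.1, 43.97, 39.6 and 41.7 in wild type brains (log2 -0.54, -0.51 with the negative controls subtracted, SE 0.18, adjusted p = 0.496), and lies near background in both. Its relative Pla2g4a averaged 31.6 ± 4.97 and 38.6 ± 1.77.

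Cul1, the scaffold of SCF ubiquitin ligases, read 1182, 1231, 1214 and 1134 in knockout and 1365, 1286, 1292 and 1518 in wild type brains (log2 -0.20, adjusted p = 0.926). Magee1, a MAGE family member, read 1745, 1747, 1849 and 1771 and 1924, 1887, 1928 and 2220.0 (log2 -0.16, adjusted p = 0.926). Pnkd, mutated in a human paroxysmal movement disorder, read 939, 1039, 912 and 962 and 1071, 1174, 1103 and 1048 (log2 -0.19, adjusted p = 0.563). On the higher side Lsm2, a small nuclear RNA-binding protein of the splicing machinery, read 191, 182, 200.5 and 194 in knockout and 169, 168, 176 and 171 in wild type brains (log2 0.17, adjusted p = 0.88). In the transcription and splicing list 16 of 38 tested genes were above 0 (median -0.04), and Cdk7, a kinase of transcription initiation, averaged 219 ± 25.4 in knockout and 262 ± 22.99 in wild type brains.

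Stress and disease genes showed few separations. Hmox1, the heme oxygenase induced by oxidative stress, read 68.1, 79.5, 62.3 and 68.6 in knockout and 63.8, 40.97, 42.5 and 68.4 in wild type brains, with 2 knockout animals above the range (adjusted p = 0.726). Nqo1, a quinone reductase, averaged 127 ± 18.1 and 114 ± 13.6, and Txnl1, a thioredoxin-like protein, 529 ± 40.4 and 617 ± 90.3. Xbp1, a transcription factor of the unfolded protein response, averaged 773 ± 55.4 and 686 ± 65.05. Bace1, the beta-secretase that cleaves the amyloid precursor, read 689.7, 705, 754 and 733 in knockout and 846, 744, 770.4 and 814 in wild type brains, with 3 knockout animals below the range (adjusted p = 0.88). The mouse counterpart of C9orf72, a gene whose repeat expansion causes frontotemporal dementia, is listed as 3110043O21Rik and averaged 256 ± 23.5 in knockout and 265 ± 15.8 in wild type brains. Of 23 tested neurodegenerative disease genes, which include Trem2, 11 were above 0 (median -0.01).

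Interneuron buffers and peptides had a median of 0.09 (5 of 8 above 0), which turned to -0.0027 without wild type replicate 3. Further innate immune genes had a median of -0.08 (5 of 14 above 0), which turned to 0.04 with the negative controls subtracted. The lists that follow were nearer to 0. Medians were -0.01 for oxidative stress (12 genes), -0.02 for the proteasome and unfolded protein response (9), -0.01 for mitochondria (8), 0.01 for chromatin regulators (21), -0.05 for phospholipases (22), 0.05 for G proteins (15), -0.02 for axon guidance (20) and -0.01 for vesicle coats (15). None of these held a gene past the adjusted threshold. Of the 708 tested genes 554 stood in a list and 154 in none.

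The separations were compared under 3 other scalings, which were centring on the median, quantile normalization and subtraction of the negative controls. Of the 8 higher genes 6 stayed without overlap under all 3, among them Cd68, C1qa, C1qb, C1qc and Trem2. Of the 16 lower genes 3 did so, Grn and Abl1 among them. Under the same 3 scalings the count of genes without overlap was 14 higher and 13 lower after centring, 18 and 13 after quantile normalization, and 18 and 11 after subtraction, against 8 and 16 as deposited. With scaling to the positive controls, which widened the spread between animals (median SE 0.34), 1 gene was higher and 1 lower.

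The Trem2-null animals gave a second comparison of Grn loss, the double knockout against the Trem2 knockout. Here 3 of 708 genes passed (0.424%), Grn, Cd68 and C1qb, and 39 (5.51%) had an unadjusted p under 0.05. Cd68 read 159.6, 145, 138 and 168 in the double knockout and 96.4, 116, 84.7 and 95.97 in the Trem2 knockout (log2 0.64, adjusted p = 0.0142), without overlap. C1qb read 817, 797, 819 and 774 and 599, 551, 589 and 545 (log2 0.49, adjusted p = 0.00998), again without overlap, while its level in the double knockout was near that of wild type with Trem2 (756 ± 43.9). Without Trem2 knockout replicate 4 neither passed, and Cd68 also lost the call without Trem2 knockout replicate 1 or 3 or double knockout replicate 1 or 4.

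Other microglial genes varied there. Of the 5 homeostatic genes 3 were above 0 (median 0.01), beside 55.4% of all genes. The phagocyte oxidase, Toll receptor and inflammasome list had 5 of 7 above 0 (median 0.01), and the activated microglial list 6 of 8 (median 0.15). Ncf1 had 2 double knockout animals below every Trem2 knockout animal. C1qa read 598, 544, 600.0 and 637 in the double knockout and 579, 504, 409.6 and 389 in the Trem2 knockout, with 3 of 4 double knockout animals above the range (log2 0.35, adjusted p = 0.793). C1qc read 495, 438, 553 and 539 and 427, 451, 430.2 and 328, also with 3 above (log2 0.31). Fcrls read 137, 153, 157 and 211 and 86.7, 105, 128 and 108, without overlap (log2 0.61, adjusted p = 0.329). Cd9 and Cybb, which overlapped between the Grn knockout and wild type, were also wholly higher. Cd9 averaged 800.1 ± 96.6 in the double knockout and 692 ± 22.3 in the Trem2 knockout (log2 0.20, adjusted p = 0.922). Cybb read 24.1, 22.2, 17.3 and 27.2 and 17.1, 16.3, 10.9 and 12.7, near background (log2 0.64, adjusted p = 0.82). Apoe overlapped, at 4233 ± 160.3 in the double knockout and 3967 ± 529 in the Trem2 knockout. Gfap averaged 743 ± 109 and 638 ± 160.3. Cast was again wholly lower, at 143, 159.6, 140.4 and 163 in the double knockout and 176, 171, 169 and 167 in the Trem2 knockout (log2 -0.18, adjusted p = 0.793).

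**Figure D5:**
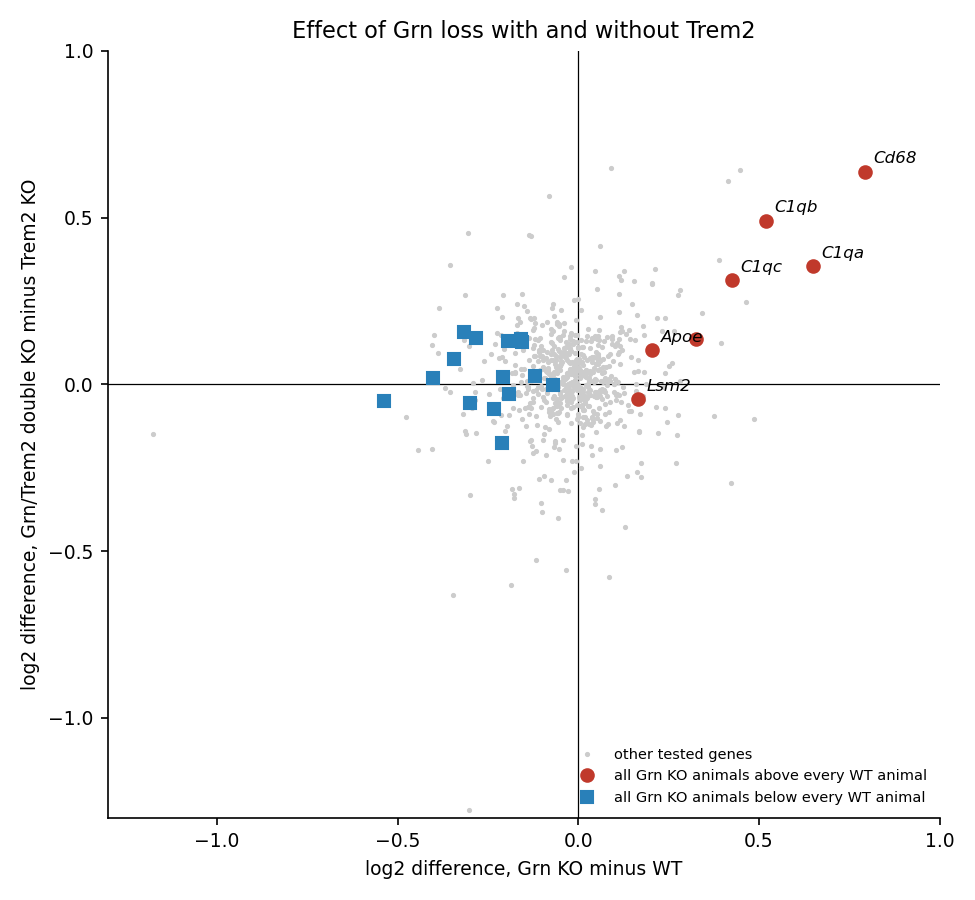
Log2 difference of Grn loss without Trem2 (double knockout minus Trem2 knockout, vertical axis) against the difference with Trem2 (Grn knockout minus wild type, horizontal axis) for 706 genes, 3 of which lie outside the axes; Grn and Trem2 are not drawn. Red circles (6 of 7 named) are genes wholly above and blue squares genes wholly below wild type in the Grn knockout. Of the 7 red genes 6 lie above 0 on the vertical axis, while the 15 blue genes fall on both sides of it, 6 below and 9 above.

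Leaving out Grn and Trem2, 343 of 706 genes (48.6%) had the same sign in both comparisons. Of the 7 genes wholly higher in the Grn knockout 6 had the same sign in the Trem2-null animals, with a median difference of 0.31 there and 0.42 with Trem2; Lsm2 was the exception. Of these 7, Cd68 and C1qb were without overlap in both comparisons, where 28 of 708 genes (3.95%) did not overlap in the second. Of the 15 genes wholly lower, 6 had the same sign and 9 the opposite one, with a median of 0.02 in the Trem2-null animals and -0.21 with Trem2, and 1, Cast, was without overlap in both.

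The size of the Grn effect with and without Trem2 was also compared directly. No gene of 708 (0%) passed in limma for the difference of the effects, and 24 (3.39%) had an unadjusted p under 0.05. For Cd68 the effect was larger with Trem2 by 0.16 on the log2 scale (SE 0.16, adjusted p = 0.996), for C1qa by 0.30 (SE 0.17) and for C1qb by 0.03 (SE 0.12). Missing the threshold does not show that the effects were equal.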

How the data were processed

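The labels name the platform (nCounter Neuropathology panel) and column purification of total RNA; the labels used here name no counting software, background correction or normalization. The deposited signal values proved to be whole counts times 1 factor per animal, within a tolerance of 0.0075, with the geometric mean of 10 reference genes equal in every animal (321.56) and no background subtracted; a gene moving with those reference genes would be hidden. Control probes are unscaled. For subtraction, the mean negative control times the factor of each animal was taken off, and values under 1 were set to 1. Symbols were matched to RefSeq (763 as symbol, 7 as synonym; GRCm38.p6). Genotypes came from the labels; replicate numbers follow deposit order and pair no animals. No sample repeated another: in all 12 within-genotype pairs chi-square over its degrees of freedom was 4.78 to 15.1.

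Genes with a mean of 20 or more over the 16 animals were tested on the log2(value + 1) scale in limma 3.58.1 (R 4.3.3), with a mean per genotype, 12 residual degrees of freedom, two-sided tests and Benjamini-Hochberg adjustment over 708 genes at 0.05. Folds are 2 to the power of that difference and understate changes of weak genes. The exact permutation tests ran over all 70 arrangements. The fit was tested on simulated data. The comparison, the gene lists (35, and 11 added after the files were read) and the genes to name were chosen with earlier results of these data known. The naming rule took Grn, Trem2, every called or non-overlapping gene, the 12 rises and 12 falls with the smallest p, up to 5 genes of each list by smallest p, the 10 most abundant genes and a fixed set; Avp and the genes below the filter that are named fall outside it, and some genes that it names are not reported here. The alternatives were other pseudocounts, filters, scalings, variance models and tools, and leaving out each animal.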

Additional observations from a re-analysis of the deposited data

Results flagged for a closer look

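Among 248 combinations of a named gene and a genotype, 16 held an animal whose distance to its neighbour was large against the range of its group of 4; chance gives about 1 in 20 such groups. In the Grn knockout these were Cd68 in replicate 2 (220.4, the others 181.1 to 184.2), Csf1r in replicate 3 (477, the others 549 to 553), Cln8 in replicate 4 (230.4, the others 204.5 to 208), Npc1 in replicate 3 (582, the others 633 to 639.7), Mog in replicate 2 (1145, the others 873 to 915), Gdpd2 in replicate 1 (51.7, the others 74.2 to 77.2), Egfl7 in replicate 3 (330.5, the others 407 to 415), Adcyap1 in replicate 4 (93.2, the others 69.0 to 73.1), Abl1 in replicate 1 (88.0, the others 119 to 121) and Usp30 in replicate 3 (282, the others 325 to 331).

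In wild type they were Npc2 in replicate 2 (46.0, the others 64.9 to 68.4), Gata2 in replicate 2 (58.9, the others 62.0 to 62.6), Syt7 in replicate 3 (1313, the others 1523 to 1564), Chrna7 in replicate 2 (277, the others 316 to 322), Pla2g4a in replicate 2 (36.0, the others 39.4 to 39.6) and Magee1 in replicate 4 (2220.0, the others 1887 to 1928). For Cd68, Abl1, Usp30 and Magee1 the animal that stood apart lay on the far side from the other genotype, so the groups were also separated by the remaining animals. For Mog the knockout animal that stood apart was the one inside the wild type range.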

How the results depend on the processing

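The main count of 4 genes was 4 or 5 under the other pseudocount, filters, variance model, 8-animal fit, centring, quantile normalization, negative control subtraction and voom, and 3 to 5 when 1 animal was left out. With scaling to the positive controls it was 1 (Grn), and Cd68, C1qa and C1qb had adjusted p of 0.260, 0.543 and 0.584 with larger differences (1.14, 0.998 and 0.868) and a larger spread. Genes without overlap numbered 2 with that scaling, 21 to 31 under the others and 30 to 51 with 1 animal left out, where fewer animals overlap less by construction. In the Trem2-null animals the count of 3 was 1 to 3 with 1 animal left out; with scaling to the positive controls it was 3, but of Grn, Npas4 and Prl. The difference of the effects gave 1 gene (Prl) with that scaling and 0 otherwise. Of 124 named genes, 60 changed sign with that scaling and at most 5 under any other. No paired analysis was possible because replicate numbers are the order of deposit. The edgeR test listed as an alternative was not run, and voom was run for the main comparison only. Depth limits weak genes: under 100 counts the median SE was 0.19.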

Other observations

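Below the filter on low values stood 62 genes, among them Tnf, Il1b, Cd14 and Aif1, whose values in the Grn knockout and wild type brains lay at or near the negative controls. Tnf for instance read 14.5, 16.9, 5.42 and 15.0 in the Grn knockout and 15.1, 15.99, 18.8 and 17.1 in wild type brains, and Aif1, a microglial actin-binding protein, 15.4, 12.7, 16.2 and 12.9 and 17.4, 8.99, 19.8 and 13.9.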
